A study of Mus musculus with 84 samples.

Results

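The histone deacetylases described here are 10 zinc-dependent enzymes, Hdac1, Hdac2, Hdac3, Hdac8 (class I), Hdac4, Hdac5, Hdac7, Hdac9 (class IIa), Hdac6 (class IIb) and Hdac11 (class IV). Hdac10 is not among them. The 10 genes were taken by gene symbol from a table of 43629 genes counted in 84 libraries of hand-dissected ventrolateral striatum. The mice were adults of 2 selected lines, SOT and NOT, written S4 in the series' design text and known for selection on ethanol preference together with ethanol withdrawal. By the labels, 44 animals (21 females, 23 males) were High Drinker and 40 (18 females, 22 males) were Low Drinker. The labels do not say which line is which group, and they give neither age nor family. All animals were naive, with no ethanol and no other treatment. All 10 genes passed the filter on low counts.

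Histone deacetylases remove acetyl groups from lysines of histones and other proteins. Deacetylated histone tails hold DNA more tightly, and genes under them are in general less transcribed. Of the class I enzymes, Hdac1, Hdac2 and Hdac3 act mainly in the nucleus as the catalytic subunits of repressor complexes. Class IIa enzymes have little activity of their own, bind MEF2 transcription factors, and move between nucleus and cytoplasm when neuronal activity leads to their phosphorylation. Hdac6 works mainly in the cytoplasm on tubulin and other proteins. In the striatum, deacetylases are studied for their part in responses to drugs of abuse, alcohol among them.

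Total counts ran from 22190363 to 41300401 per library, and the sex label matched the expression of sex-linked genes in 84 of 84 libraries. In 5 libraries (High Drinker 17 and Low Drinker 8, 32, 33 and 34) the expression profile stood apart from the rest. The numbers in the sample titles run in 3 sets, called sheet sets here, of 48, 30 and 6 libraries. Set was a term of the model, but the labels do not call the sets batches. Medium spiny neuron markers such as Ppp1r1b and Drd1 were counted in every library, as the label striatum requires. The cortical neuron markers Slc17a7 and Tbr1 were counted in every library too.

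Per length of counted exon, Hdac11 transcripts were the most abundant and Hdac8 transcripts the least. Hdac11 averaged 62.7 ± 5.8 CPM per kb (CPM is the count scaled to the library's total; SD, n = 84), 37.4% of the summed level of the 10 genes. Hdac3 followed at 25.7 ± 1.83, Hdac5 at 24.2 ± 2.79, Hdac2 at 19.5 ± 1.88 and Hdac6 at 12.04 ± 1.252 CPM per kb. The other 5 genes were lower: Hdac7 at 6.48 ± 2.08, Hdac9 at 5.86 ± 2.08, Hdac1 at 4.50 ± 0.782, Hdac4 at 4.18 ± 0.774 and Hdac8 at 2.25 ± 0.226 CPM per kb. Hdac11 lay above Hdac3 in 84 of 84 libraries, and Hdac6 above Hdac7 in 84 of 84. Neighbours in the order that did not separate beyond their spread were Hdac3 over Hdac5 (60 of 84 libraries), Hdac7 over Hdac9 (51 of 84), Hdac9 over Hdac1 (59 of 84) and Hdac1 over Hdac4 (50 of 84). The counted exons of Hdac9 reach from 34371503 to 34528889 on chromosome 12 (mm10), while GENCODE's gene runs from 34047580 to 34917095, so its level leaves out transcripts that lie outside the counted part.

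**Figure D1:**
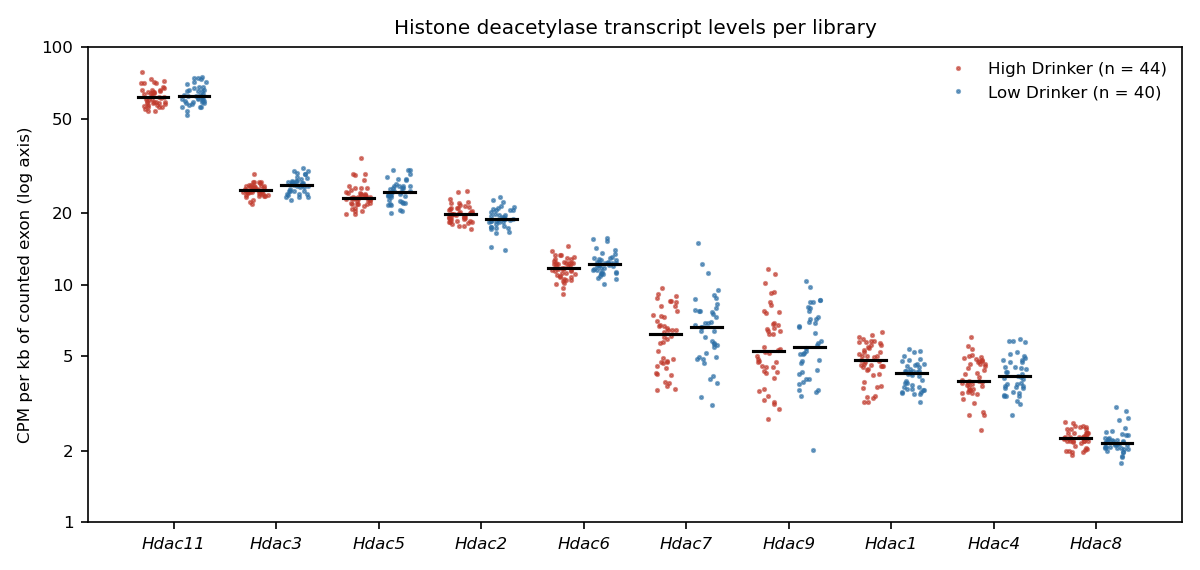
CPM per kb of counted exon (log axis) of each histone deacetylase in each library, High Drinker in red and Low Drinker in blue, with group medians as black bars. Hdac11 stands above all others, Hdac7 and Hdac9 spread most widely, and the groups overlap for every gene.

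The spread between animals differed several-fold among the 10 genes. As a coefficient of variation of CPM over 84 libraries it was 35.5% for Hdac9, 32.1% for Hdac7, 18.5% for Hdac4 and 17.4% for Hdac1. It was 11.5% for Hdac5, 10.4% for Hdac6, 10.05% for Hdac8, 9.62% for Hdac2 and 9.26% for Hdac11, and lowest for Hdac3 at 7.15%. Counting error alone would give 3.503% for Hdac9, 2.98% for Hdac7, 4.52% for Hdac1 and 5.40% for Hdac8, and the measured spread was above it for all 10 genes.

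The first comparison asked which histone deacetylases differed between High Drinker and Low Drinker animals. One gene passed the threshold, Hdac1, which was higher in High Drinker animals, and that call was lost when the reads of its processed pseudogene were counted with it. The other 9 genes did not pass. Across all genes, 3.94% of 17071 tested passed in either direction and 1.86% passed as higher, against 1 of these 10. The median log2 fold change of the 10 genes was -0.00917, and that of all tested genes 0.00133.

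Hdac1 (ENSMUSG00000028800, chromosome 4, 129516104 to 129542713, minus strand, mm10) encodes a catalytic subunit of the Sin3, NuRD and CoREST repressor complexes. Its level in High Drinker libraries was lowest at 11.04, median 16.56 and highest at 21.79 CPM, against 11.01, 14.59 and 18.51 CPM in Low Drinker libraries. The groups overlapped, with 13 of 44 High Drinker libraries above the highest Low Drinker library and 33 of 44 above the Low Drinker median. Hdac1 averaged 16.5 ± 2.93 CPM across High Drinker animals (n = 44, SD) and 14.4 ± 1.91 CPM across Low Drinker animals (SD, n = 40). The log2 fold change was 0.20 ± 0.05 (SE), with an adjusted p of 0.0148 by edgeR's quasi-likelihood test with Benjamini-Hochberg adjustment.

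The difference was of like size in both sexes and in both large sheet sets, where fewer animals entered each fit. It was 0.21 in females and 0.21 in males, with edgeR adjusted p-values of 0.386 and 0.165. In sheet set 1 Hdac1 averaged 16.4 ± 3.11 CPM across High Drinker animals (n = 30) and 14.3 ± 1.93 CPM across Low Drinker animals (n = 18), which is 0.20 on the log2 scale (edgeR adjusted p = 0.198). In sheet set 2 it averaged 17.3 ± 2.59 CPM across High Drinker animals (n = 11) and 14.3 ± 1.90 CPM across Low Drinker animals (n = 19), which is 0.27 on the log2 scale (edgeR adjusted p = 0.233). Sheet set 3 ran the other way, with 14.99 ± 1.864 CPM across High Drinker animals and 15.9 ± 1.78 CPM across Low Drinker animals (n = 3 each).

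Hdac1 shares sequence with a processed pseudogene, an intronless copy of its messenger RNA. RefSeq names this copy Hdac1-ps, and the deposited table counts it as Gm10093 (chromosome 17, 78491565 to 78493541). Of the distinct stretches of 100 bases (the read length) in Hdac1's GENCODE transcripts, 24.9% also occurred in transcripts of other genes, nearly all of them in Gm10093. Reads from such stretches cannot be assigned to one gene by sequence, and the setting used for them in counting is not given in the sources used here. No stretch of Hdac2, Hdac3, Hdac6, Hdac7, Hdac8 or Hdac9 was shared in this way. For Hdac4 the share was 20.8% (Gm26720), for Hdac11 12.7% (Gm44002) and for Hdac5 0.113% (Mir8101). Gm26720 and Mir8101 lie at the same place as their partner and had a median count of 0, unlike Gm10093, which is a separate copy. For Gm44002 the place and count are not given here, and its effect on the level of Hdac11 was not tested.

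Gm10093 moved opposite to Hdac1. Its level in High Drinker libraries was lowest at 0, median 1.08 and highest at 2.98 CPM, against 0.0313, 2.08 and 4.56 CPM in Low Drinker libraries. It averaged 1.02 ± 0.870 CPM across High Drinker animals and 2.11 ± 0.839 CPM across Low Drinker animals (SD, n = 44 and 40), a log2 fold change of -1.11 ± 0.27 (SE, edgeR adjusted p = 0.00843). The libraries fell into separate bands: 17 High Drinker libraries and 1 Low Drinker library lay at 0.184 CPM or below, at most 6 counts, and the next library lay at 0.659 CPM. Those 18 libraries held Hdac1 at 17.1 to 21.8 CPM, while the other 66 ran from 11.01 to 18.2 CPM. Because of the bands, a pooled correlation of the pair is not read as a relation.

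With the counts of both added together, the level was 17.5 ± 2.24 CPM across High Drinker animals and 16.5 ± 1.74 CPM across Low Drinker animals. The log2 fold change of the sum was 0.09 ± 0.04 (SE), with an edgeR adjusted p of 0.206, so no histone deacetylase passed. Gm10093 made up 6.38 ± 5.82% of the sum across High Drinker animals and 12.9 ± 4.86% across Low Drinker animals. This sum was formed after the values were seen.

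**Figure D2:**
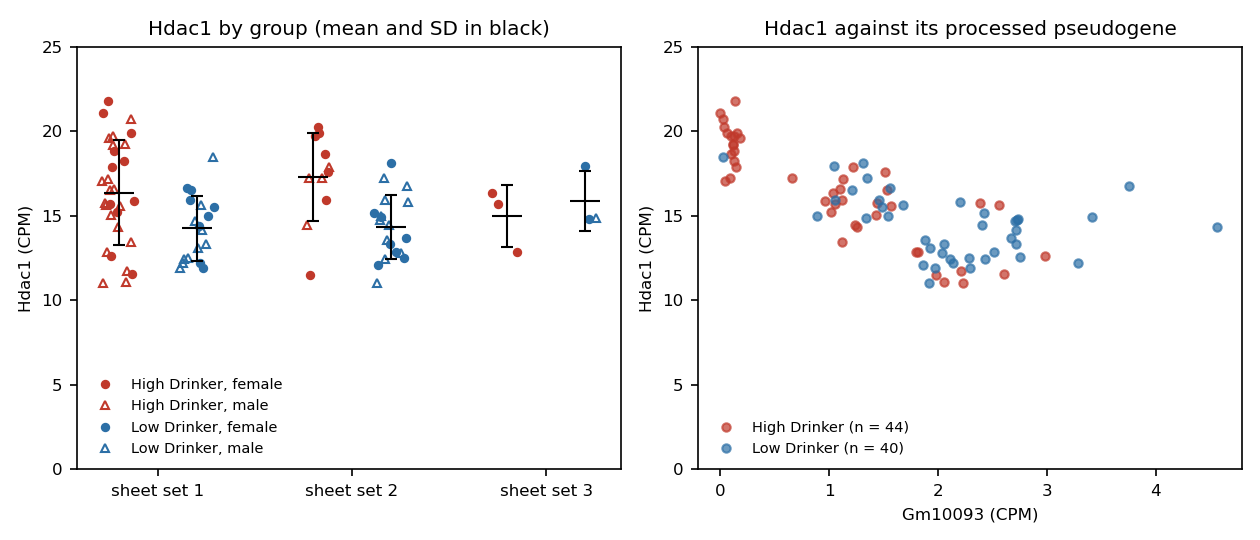
Left, Hdac1 CPM per library by group within each sheet set, with the mean and SD in black. Right, Hdac1 against Gm10093 in the same libraries, where 17 High Drinker libraries and 1 Low Drinker library sit at or below 0.184 CPM of Gm10093 and at the upper end of Hdac1.

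The genes most like Hdac1 across animals lay on its own chromosome. Likeness was measured as Pearson r of log2 CPM over 84 libraries after sheet set, sex and group were removed, among protein-coding genes of at least 1 CPM. The leading gene was Dcdc2b (r = 0.816), a doublecortin-domain gene 65.6 kb from Hdac1, and next came Arhgef19 (r = 0.662), 11696.8 kb away. Ccdc28b, Col16a1 and Sfn, all on chromosome 4, followed at 0.66, 0.644 and 0.608. Dcdc2b averaged 4.58 ± 2.45 CPM across High Drinker animals and 2.21 ± 1.56 CPM across Low Drinker animals, and its r with Hdac1 was 0.881 within High Drinker and 0.741 within Low Drinker animals. These are the libraries that fell into bands of Gm10093. The r of Dcdc2b with Gm10093 was -0.731 over all 84, -0.804 within High Drinker and -0.665 within Low Drinker animals. Whether the likeness of Dcdc2b to Hdac1 follows those bands was not tested.

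Counting every tested gene with an absolute r of at least 0.5, Hdac1 had 27, of which 22 were on chromosome 4 (81.5%), where 6.24% of the tested genes lie. All 22 were within 20 Mb of Hdac1, and 0 of 571 genes of chromosome 4 farther away reached 0.5. The 5 on other chromosomes included Gm10093, whose r of -0.731 is not read as a relation because of the bands described above. A pair of other processed pseudogenes, Gm5898 and Gm6594, had pooled r of -0.767 and -0.714 with Hdac1. Whether their levels fall into bands too was not tested, so these values are not read as relations either. For the other 9 histone deacetylases the own chromosome held between 2.8% and 8.0% of such genes, Hdac5 being highest, where 8.09% of the tested genes lie. With Gm10093 added to Hdac1, r was 0.669 with Dcdc2b and 0.574 with Arhgef19, and 12 of 43 genes at 0.5 or more were on chromosome 4. Genes near each other on a chromosome are linked and are not independent points.

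**Figure D3:**
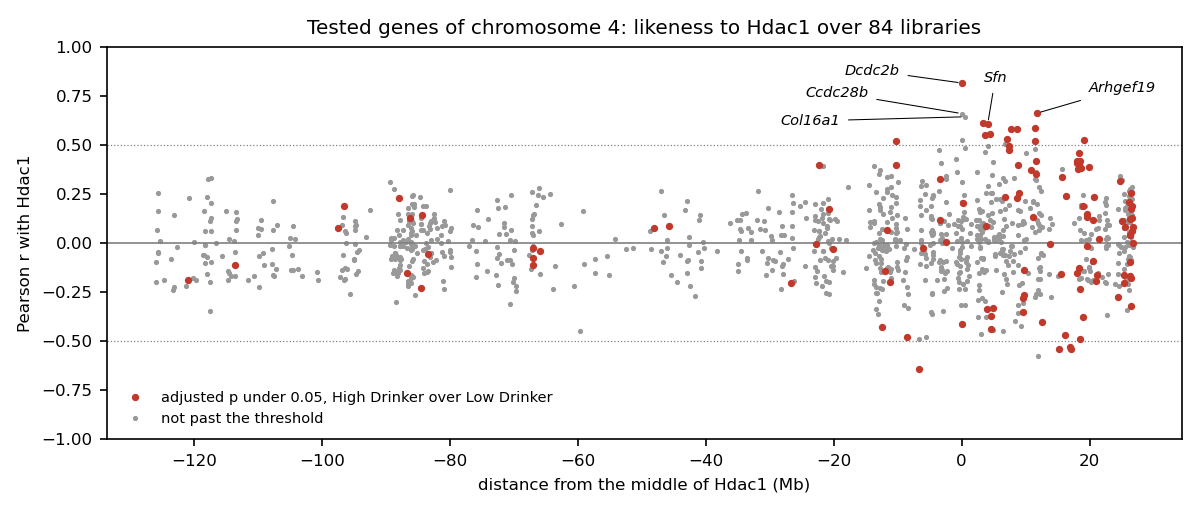
Pearson r of each tested chromosome 4 gene with Hdac1 over 84 libraries, against its distance from the middle of Hdac1 (Mb), with genes past the threshold between the groups in red. Values of 0.5 or more in either direction (dotted lines) occur within 20 Mb of Hdac1 and not farther away.

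Hdac2, the close relative of Hdac1 in the same complexes, did not pass. Its level in High Drinker libraries was lowest at 76.6, median 88.6 and highest at 111 CPM, against 62.7, 84.4 and 104 CPM in Low Drinker libraries. The groups overlapped, and the log2 fold change was 0.05 with a 95% interval from -0.004 to 0.113 (edgeR adjusted p = 0.316).

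Hdac3, the catalytic subunit of the NCoR and SMRT complexes, came closest to the threshold after Hdac1 and was lower in High Drinker animals on average. Its level in High Drinker libraries was lowest at 88.0, median 100.3 and highest at 117 CPM, against 91.2, 106 and 124 CPM in Low Drinker libraries. In 7 of 44 High Drinker libraries it lay above the Low Drinker median, and 28 of 40 Low Drinker libraries lay above the High Drinker median. The log2 fold change was -0.07 ± 0.02 (SE), with an adjusted p of 0.0656 by edgeR. It passed with DESeq2 (adjusted p = 0.0428), without the sheet set term (0.0304) and with 5 surrogate variables (0.0239), and was -0.05 without the 5 libraries that stood apart (edgeR adjusted p = 0.297). Within 1 Mb of Hdac3 on chromosome 18, 12 of 78 tested genes passed, and all 12 were protocadherins that were higher in High Drinker animals.

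Hdac8, a class I enzyme encoded on the X chromosome that acts on the cohesin subunit Smc3, differed by a log2 fold change of 0.03 (95% interval -0.034 to 0.09, edgeR adjusted p = 0.695). Its level ran from 9.31 to 12.9 CPM across High Drinker animals and from 8.64 to 14.8 CPM across Low Drinker animals.

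None of the class IIa enzymes passed between the groups, and the intervals of Hdac4, Hdac7 and Hdac9 were the widest of the 10 genes. Hdac4 was lowest at 37.8, median 60.8 and highest at 92.8 CPM in High Drinker libraries, against 43.6, 63.4 and 90.7 CPM in Low Drinker libraries (log2 fold change -0.01, 95% interval -0.126 to 0.111). Hdac9 was lowest at 12.1, median 23.3 and highest at 51.3 CPM in High Drinker libraries, against 8.89, 24.3 and 45.9 CPM in Low Drinker libraries (0.04, -0.187 to 0.267). Both groups covered nearly the same range for each gene. Hdac7 was lowest at 19.98, median 34.4 and highest at 53.3 CPM in High Drinker libraries, against 17.3, 36.6 and 82.8 CPM in Low Drinker libraries (-0.05, -0.237 to 0.131). Hdac5 ran from 173.6 to 300.0 CPM across High Drinker animals and from 175.9 to 266.9 CPM across Low Drinker animals (-0.02, -0.087 to 0.039). The edgeR adjusted p-values of these 4 genes ran from 0.751 (Hdac5) to 0.967 (Hdac4).

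Hdac6, the X-linked tubulin deacetylase, and Hdac11, the only class IV enzyme, known to remove long fatty acyl groups as well as acetyl groups, did not pass. Hdac6 ran from 53.3 to 84.5 CPM across High Drinker animals and from 58.7 to 91.4 CPM across Low Drinker animals (log2 fold change -0.05, 95% interval -0.112 to 0.016, edgeR adjusted p = 0.449). Hdac11 was lowest at 206.6, median 236.8 and highest at 301.8 CPM in High Drinker libraries, against 198.8, 239.1 and 288.3 CPM in Low Drinker libraries. Its log2 fold change was -0.01 (95% interval -0.069 to 0.048, edgeR adjusted p = 0.895).

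Hdac7 shares exon bases on the opposite strand with Slc48a1, a heme transporter gene with a median count of 5191.5. The shared part is 29 of 5530 exon bases of Hdac7 (0.52%), shorter than a read. The library kits named in the labels do not mark strand. The r of Hdac7 with Slc48a1 was 0.305 over 84 libraries. The opposite-strand partners of Hdac4 (Gm26720) and Hdac11 (Gm14573), and Mir8101 inside Hdac5, each had a median count of 0. Gm26720 shares 3536 of 15375 exon bases of Hdac4, the largest overlap of the 4. How reads in shared bases were counted is not given in the sources used here. A median count of 0 for Gm26720 therefore does not show that the level of Hdac4 is complete. Whether its level per kb, and so its place below Hdac1, is understated was not tested.

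Sex made no difference that passed for any of the 10 genes, including the X-linked Hdac6 and Hdac8. Across all genes 0.0996% of 17071 passed between females and males, 0.0527% as higher in females and 0.0469% as lower. None of the 10 had an unadjusted p under 0.05 by edgeR, and DESeq2 and limma-voom called 0 as well. Hdac6 averaged 70.2 ± 6.91 CPM in females (n = 39) and 69.9 ± 7.67 CPM in males (n = 45), a log2 fold change of -0.01 with a 95% interval from -0.069 to 0.058. Hdac8 averaged 11.03 ± 1.12 CPM in females and 10.7 ± 1.07 CPM in males (0.02, -0.041 to 0.084). Hdac7 had the largest fitted sex difference, 0.07, with an interval from -0.113 to 0.256. The difference between the drinking groups did not depend on sex at the threshold for any of the 10 genes or for any of 17071 genes (0% called by edgeR, with 0 of the 10 and 965 of all genes at an unadjusted p under 0.05), and DESeq2 and limma-voom also called 0.

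**Figure D4:**
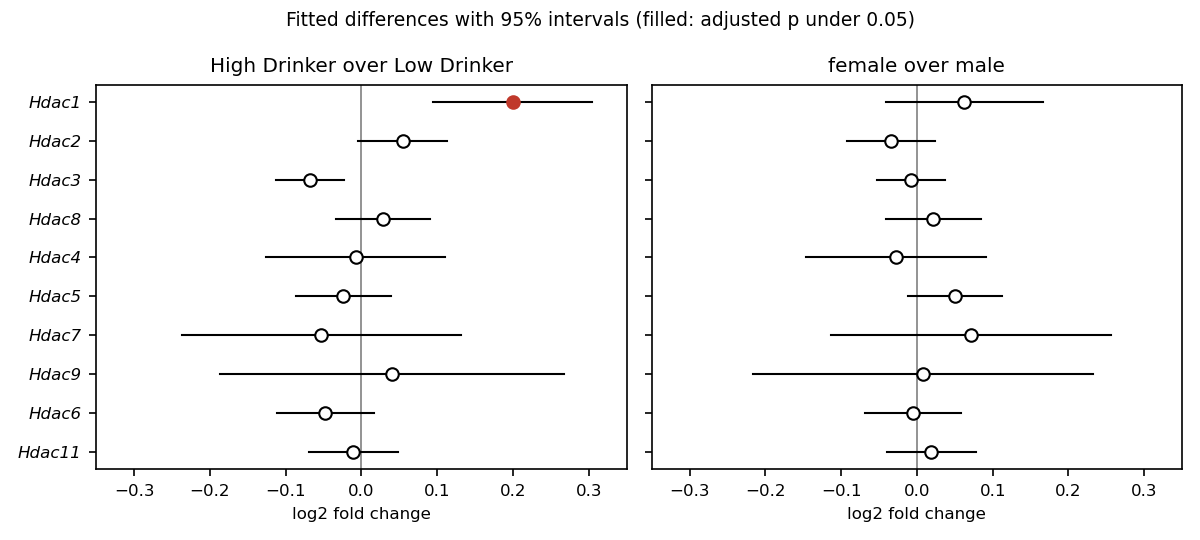
Fitted log2 fold change (points) with 95% intervals (lines) for each histone deacetylase, High Drinker over Low Drinker on the left and female over male on the right. The Hdac1 difference between the drinking groups is the filled point, before reads of its pseudogene are added.

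A further question of the series was whether expression varied more among the animals of one line. No histone deacetylase passed by limma on absolute deviations from the median, where 0.0117% of all genes passed, and 0 of the 10 had an unadjusted p under 0.05. The SD of Hdac1 was 2.93 CPM across High Drinker animals and 1.91 CPM across Low Drinker animals, a difference in mean absolute deviation of 0.05 ± 0.03 (SE) on the log2 scale (limma adjusted p = 0.979). For Hdac3 the SDs were 5.63 CPM across High Drinker animals and 8.12 CPM across Low Drinker animals, a difference of -0.02 ± 0.01 (SE, limma adjusted p = 0.979).

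Across animals the histone deacetylases varied in groups. Of 45 pairs, 25 were correlated past an adjusted p of 0.05, 14 of them positively, by permutation of residual log2 CPM over 84 libraries with adjustment over the 45 pairs. The share of all gene pairs that would pass was not computed. At an absolute r of at least 0.5, Hdac9 had 5409 of 17070 other tested genes, Hdac4 4169, Hdac11 3839, Hdac7 2976 and Hdac2 2533. Hdac3 had 1970, Hdac6 1575, Hdac5 547, Hdac8 144 and Hdac1 27. Correlation of this size is therefore not particular to pairs of these 10 genes. Hdac4 and Hdac9 varied together, Hdac6 and Hdac7 varied together, and Hdac2 and Hdac11 went against Hdac4, Hdac7 and Hdac9. Hdac1 and Hdac2, partners in the same complexes, had r = 0.023 (adjusted p = 0.871, permutation test).

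The 3 strongest pairs join Hdac7 with Hdac6, Hdac7 with Hdac2, and Hdac4 with Hdac9. Their promoters are shown because these are the genes that moved together or apart. Each sequence is the 250 bases before the RefSeq start that coincides with the start of the counted gene (GRCm38.p6), written 5′ to 3′ on the gene's own strand. Capitals mark the GC box GGGCGG and the CCAAT box CCAAT on either strand, where GGGCGG on the other strand reads CCGCCC and CCAAT reads ATTGG.
Hdac9 (chr12:34528890-34529139, - strand): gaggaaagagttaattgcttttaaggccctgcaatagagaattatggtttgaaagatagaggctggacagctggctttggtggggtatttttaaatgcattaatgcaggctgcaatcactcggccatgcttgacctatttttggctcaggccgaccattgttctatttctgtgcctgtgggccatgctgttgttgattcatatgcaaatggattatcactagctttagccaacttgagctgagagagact
Hdac4 (chr1:92180342-92180591, - strand): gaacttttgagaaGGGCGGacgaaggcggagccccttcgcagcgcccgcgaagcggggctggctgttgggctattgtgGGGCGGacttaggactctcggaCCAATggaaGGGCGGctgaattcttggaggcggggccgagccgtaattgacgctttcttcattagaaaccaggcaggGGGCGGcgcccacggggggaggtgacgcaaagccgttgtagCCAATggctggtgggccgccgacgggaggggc
Hdac7 (chr15:97844503-97844752, - strand): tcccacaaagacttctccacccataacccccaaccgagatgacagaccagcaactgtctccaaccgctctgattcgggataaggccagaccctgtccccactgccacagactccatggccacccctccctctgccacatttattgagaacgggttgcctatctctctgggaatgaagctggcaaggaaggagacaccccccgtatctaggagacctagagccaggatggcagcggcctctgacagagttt
Hdac6 (chrX:7947890-7948139, - strand): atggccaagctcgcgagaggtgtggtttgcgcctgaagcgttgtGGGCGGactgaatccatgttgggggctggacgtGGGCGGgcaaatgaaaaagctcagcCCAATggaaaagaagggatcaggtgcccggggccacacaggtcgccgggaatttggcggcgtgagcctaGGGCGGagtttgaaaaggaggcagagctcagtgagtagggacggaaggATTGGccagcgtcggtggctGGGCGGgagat
Hdac2 (chr10:36974294-36974543, + strand): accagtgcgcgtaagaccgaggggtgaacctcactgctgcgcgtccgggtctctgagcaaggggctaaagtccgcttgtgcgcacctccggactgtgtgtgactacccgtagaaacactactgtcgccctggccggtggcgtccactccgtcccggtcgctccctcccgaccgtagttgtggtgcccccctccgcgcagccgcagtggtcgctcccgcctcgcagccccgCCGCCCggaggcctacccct

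Of the 32851 windows of this length in the table, 32.7% hold a GC box and 33.8% a CCAAT box. Hdac4 and Hdac6 each hold 4 GC boxes and 2 CCAAT boxes, and Hdac2 holds 1 GC box. Neither motif occurs in the windows shown for Hdac9 and Hdac7. Both genes have other RefSeq starts, and of the 4 windows of Hdac7 the one at chr15:97831496-97831745 holds 1 GC box and is 74.0% G and C with 25 CpG dinucleotides. The Hdac9 window is 43.6% G and C with 2 CpG dinucleotides, and the Hdac4 window is 65.2% with 23, against medians of 52.4% and 6 over all windows. The MEF2 consensus, held by 2.92% of windows, occurs in none of these 5. Among the 8 histone deacetylases with an entry it occurs in the window of Hdac5 alone. Hdac1 and Hdac3 have no entry.

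Hdac7 and Hdac6 had r = 0.709 and Spearman's rho = 0.721 (adjusted p = 5.62e-05 and 5e-05), 0.671 without the 2 libraries farthest from the median, 0.702 in sheet set 1 and 0.689 in sheet set 2. Hdac2 and Hdac7 had r = -0.706 and rho = -0.644 (the same adjusted p-values), -0.631 without the 2 farthest libraries, -0.667 in sheet set 1 and -0.755 in sheet set 2. Hdac4 and Hdac9 had r = 0.701 and rho = 0.726, 0.677 without the 2 farthest libraries, 0.775 in sheet set 1 and 0.628 in sheet set 2. In all 3 pairs the raw permutation p of 1e-05 is the smallest that 100000 permutations can give. Hdac9 and Hdac11 followed at r = -0.698, Hdac3 and Hdac6 at 0.575, Hdac4 and Hdac11 at -0.564, Hdac2 and Hdac4 at -0.552 and Hdac2 and Hdac6 at -0.536.

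Some pairs did not hold across sheet sets. Hdac4 and Hdac5 had r = 0.413 in sheet set 1 and -0.4 in sheet set 2, with 0.025 over all libraries. Hdac5 and Hdac9 had 0.255 in sheet set 1 and -0.533 in sheet set 2, with -0.027 over all. Hdac5 and Hdac7 had r = 0.342 over all libraries (rho = 0.294, adjusted p = 0.00433 and 0.0192, permutation test), 0.461 in sheet set 1 and 0.111 in sheet set 2.

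No pair differed in its correlation between High Drinker and Low Drinker animals after adjustment over 45 pairs, with 2 at an unadjusted permutation p under 0.05. Hdac9 and Hdac11 had r = -0.815 across High Drinker animals and -0.557 across Low Drinker animals (p = 0.0167, adjusted p = 0.636, permutation test of the difference). Hdac2 and Hdac8 had 0.288 across High Drinker animals and -0.316 across Low Drinker animals (p = 0.0323, adjusted p = 0.636, permutation test).

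Hdac4, Hdac7 and Hdac9 rose and fell with markers of cortical neurons, and Hdac2 and Hdac11 with markers of medium spiny neurons. Scores were the mean scaled log2 CPM of 10 cortical and 18 medium spiny neuron markers, all tested and none at 0 in any library. The summed cortical markers ran from 318.6 to 3001 CPM across High Drinker animals and from 537.4 to 3518 CPM across Low Drinker animals. The summed medium spiny neuron markers ran from 1304 to 18890 CPM across High Drinker animals and from 943.1 to 15030 CPM across Low Drinker animals. In bulk tissue, fewer cells of a type and less RNA per cell cannot be told apart.

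With the cortical score, Hdac9 had r = 0.821 (rho = 0.829), Hdac4 0.798 (0.784) and Hdac7 0.578 (0.58), against -0.58 (-0.561) for Hdac2 and -0.593 (-0.627) for Hdac11. All 5 had an adjusted p of 5.45e-05 for r by permutation, over 60 relations of which 23 passed. The share of all tested genes that would pass with these scores was not computed. Without the 2 farthest libraries r was 0.812 for Hdac9, 0.772 for Hdac4, 0.558 for Hdac7, -0.509 for Hdac2 and -0.62 for Hdac11. In sheet sets 1 and 2 it was 0.879 and 0.781 for Hdac9, 0.807 and 0.768 for Hdac4, and 0.627 and 0.429 for Hdac7. The neuron scores were themselves correlated at r = -0.821, so for these 5 genes values with the medium spiny neuron score are not a separate observation. They were -0.777 for Hdac9, -0.603 for Hdac4, -0.614 for Hdac7, 0.601 for Hdac2 and 0.46 for Hdac11. Hdac6 and Hdac3 passed with the medium spiny neuron score alone, at r = -0.383 and -0.323 (adjusted p = 0.00106 and 0.00742, permutation test). With the cortical score they had 0.167 and 0.11 (adjusted p = 0.232 and 0.497, permutation test). Hdac1 and Hdac5 passed with none of the 5 cell type scores, and no histone deacetylase passed with the library total. Their pooled values join opposite signs in sheet sets 1 and 2. Hdac5 had -0.413 and 0.253 with the medium spiny neuron score, 0.382 and -0.333 with the cortical score. With the medium spiny neuron score Hdac1 had -0.247 and 0.298. Hdac8, which passed with neither neuron score, changed sign too. It had 0.415 and -0.168 with the medium spiny neuron score, and -0.466 and 0.113 with the cortical score. A pooled value near 0 therefore does not show that these genes are independent of the neuron mix.

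Some relations with glial markers passed as well. Hdac8 was correlated with the oligodendrocyte score at r = 0.399 (rho = 0.415, adjusted p = 0.00106, permutation test), Hdac6 against it at -0.386 (rho = -0.354, adjusted p = 0.0012) and Hdac3 against the astrocyte score at -0.483 (rho = -0.383, adjusted p = 5.45e-05). With the microglia score Hdac7 had r = -0.505 (rho = -0.529) and Hdac2 0.485 (rho = 0.498), with adjusted p-values for r of 5.45e-05 and 0.00015 by permutation test. Hdac8 with oligodendrocytes was 0.392 in sheet set 1 and 0.316 in sheet set 2, and Hdac3 with astrocytes -0.428 and -0.688.

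Both neuron scores together went with 70.8% of the residual variance of Hdac9 and 64.6% of that of Hdac4. The share was 39.5% for Hdac7, 38.4% for Hdac2, 35.5% for Hdac11, 21.2% for Hdac6 and 17.8% for Hdac3, against a median of 14.9% over all tested genes. It was 6.8% for Hdac8, 2.8% for Hdac1 and 2.0% for Hdac5. These shares are pooled over sheet sets, between which Hdac1, Hdac5 and Hdac8 changed sign with the scores. With both scores also removed, Hdac4 and Hdac9 had r = 0.19 and Hdac7 and Hdac9 -0.187, while Hdac2 with Hdac9 stood at 0.281, against -0.397 before. Hdac6 with Hdac7 was 0.736 after the scores were removed, and Hdac9 with Hdac11 was -0.504.

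**Figure D5:**
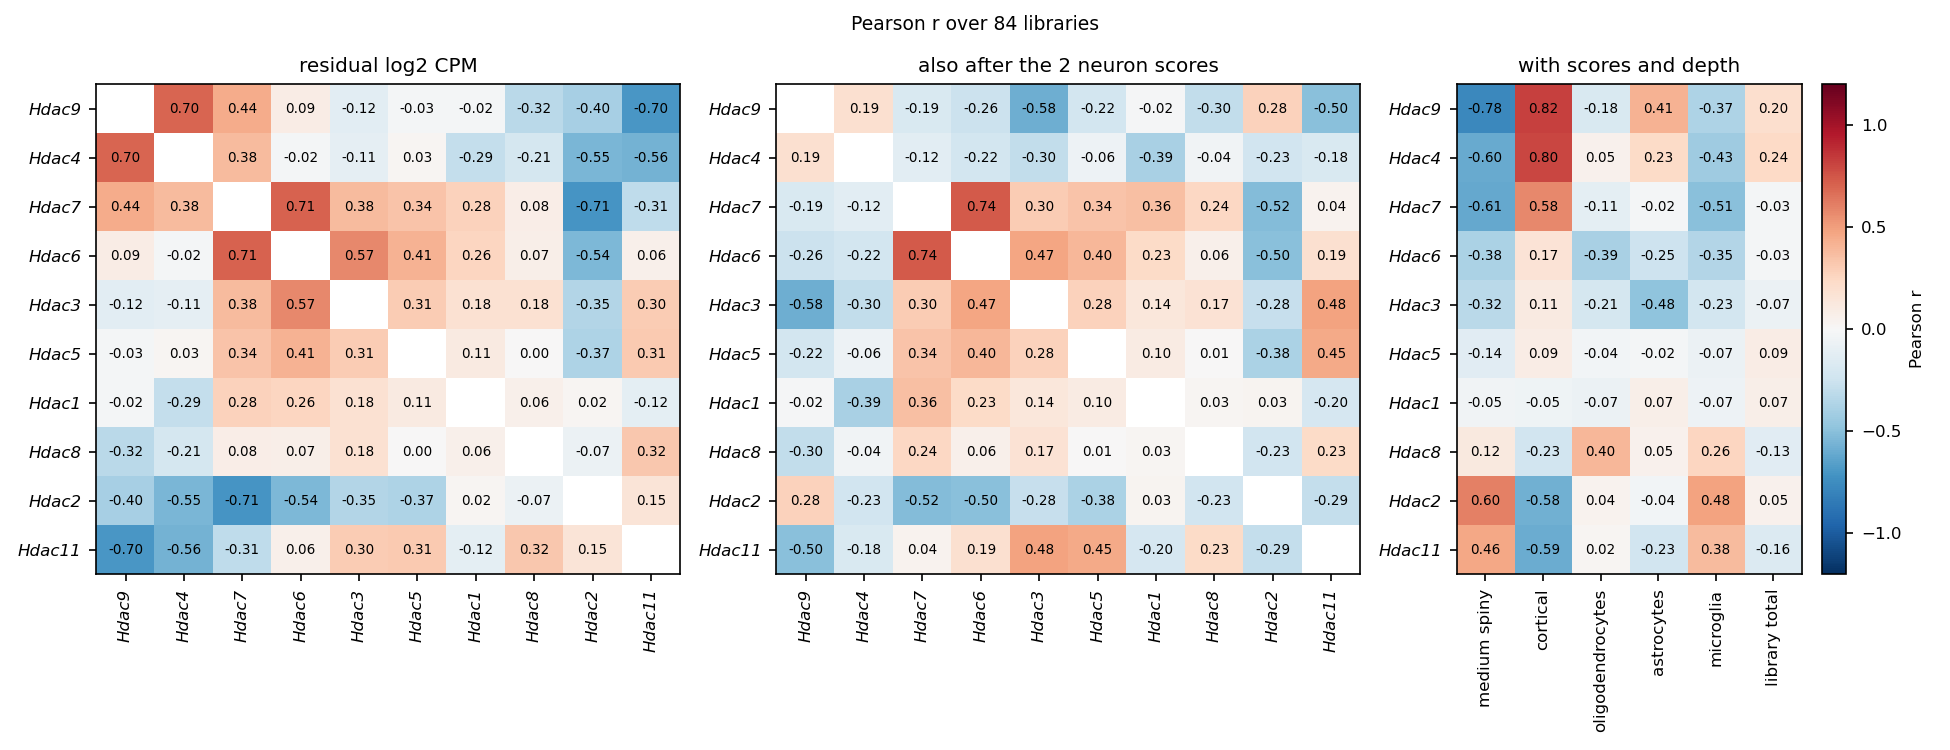
Pearson r over 84 libraries between histone deacetylases in residual log2 CPM (left), after both neuron scores were also removed (middle), and with 5 cell type scores and log2 library total (right). The Hdac4 with Hdac9 value of 0.70 is 0.19 in the middle panel, and the Hdac6 with Hdac7 value of 0.71 is 0.74.

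The genes most like each of the other histone deacetylases, by the same measure of likeness as for Hdac1, are given as a description over 84 libraries. Hdac9 was most like Kcnb2, a delayed rectifier potassium channel gene (r = 0.932), and Mef2c, a transcription factor that class IIa enzymes bind (0.921). It had 5409 of 17070 other tested genes at an absolute r of at least 0.5. Whether its likeness to Kcnb2 and Mef2c follows the neuron mix was not tested. Hdac4 was most like Adcy1, a calcium-stimulated adenylyl cyclase (0.872), and the formin Fmn1 (0.861). Hdac7 was most like the corepressor gene Tle2 (0.919) and the protease gene Bmp1 (0.894), and Hdac5 most like the kinase gene Csk (0.831) and Csdc2 (0.79).

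Hdac2 was most like Chtop (0.826) and Npm1 (0.814), both genes of nuclear RNA-binding proteins. Hdac3 was most like Snx32 (0.804) and Spag4 (0.766), and Hdac8 most like Tsc22d4 (0.648) and Rom1 (0.623). Hdac6 was most like Npr2 (0.864) and Ptpn23 (0.845), and Hdac11 most like the mitochondrial genes Mtch1 (0.876) and Bckdha (0.848). None of these genes passed between High Drinker and Low Drinker animals, unlike Dcdc2b and Arhgef19 beside Hdac1.

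The partners of the histone deacetylases were counted against the share of all genes that passed between the groups, 1.86% as higher and 2.08% as lower in High Drinker animals. Of 45 subunits of class I complexes, 1 was higher in High Drinker animals and 0 lower: Sap130 of the Sin3 complex, at 0.07 on the log2 scale (edgeR adjusted p = 0.0468). Of 15 substrates and partners of Hdac6 and Hdac8, 1 was higher and 0 lower: the cohesin subunit Smc1a, at 0.08 (edgeR adjusted p = 0.0411). Of 25 tested MEF2 factors, 14-3-3 proteins and kinases that work with class IIa enzymes, 0 passed, and Mef2c itself stood at 0.05 (edgeR adjusted p = 0.901). Of the 7 sirtuins, which are NAD-dependent deacetylases, and 12 lysine acetyltransferases, which add acetyl groups, 0 passed. The median log2 fold changes of these 5 lists ran from -0.0395 for the sirtuins to 0.06 for the acetyltransferases, and 0 genes of any list passed between females and males by edgeR.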

How the data were processed

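RNA was counted in 84 libraries, 1 per animal. The authors deposited whole-number counts of reads for each gene. Per the submitters' processing notes, build mm10 was used with STAR, FastQC, edgeR and featureCounts (Subread). For strand and multi-mapping, settings were not given in the sources used here. Per the labels, cDNA was amplified before library preparation, so counts can hold duplicates, and single-end reads were 100 bases long. Entries that name no gene numbered 0.

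Differences were tested with edgeR 4.0.16 in R 4.3.3 (quasi-likelihood, TMM, filterByExpr, terms for sheet set, sex and group), with adjustment over all 17071 genes at 0.05. Alternatives used DESeq2 1.42.0, limma 3.58.1 and sva 3.50.0. The tests were tested on simulated data. CPM are TMM-scaled, and 95% intervals come from the standard error. Correlations used residual log2 CPM (prior count 2) and 100000 permutations in Python 3.11.15 with scipy 1.17.1. Spearman and Pearson p-values were adjusted over 45 pairs and over 60 relations.

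All 10 histone deacetylases described here are named, with the 2 most alike genes of each and members of the partner lists past the threshold. The genes and lists were chosen with earlier results of these data known. Gm10093, Gm5898 and Gm6594 were named after their values were seen, as were Ccdc28b, Col16a1 and Sfn. No pair of 3486 libraries was identical. That animals are unrelated is not stated in the labels, and p-values measure only the spread between these animals.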

Additional observations from a re-analysis of the deposited data

How the results depend on the processing

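Between High Drinker and Low Drinker animals, 1 of the 10 genes passed as reported. The number was 2 with DESeq2, without the sheet set term and with 5 surrogate variables, where Hdac3 joined Hdac1. It was 0 in sheet set 1, in sheet set 2, in females, in males and with Hdac1 summed with Gm10093 (the last chosen after seeing the data). It stayed at 1 under the other alternatives run, one of which left out a library rich in a ribosomal RNA gene and was also chosen after seeing the data. Calls across all genes numbered 672 as reported, against 79 in either sheet set alone, 35 in females, 107 in males, 425 without the 5 libraries that stood apart and 2490 with surrogate variables. Correlated pairs numbered 25 as reported, 9 in sheet set 2, 15 in Low Drinker animals and 22 after both neuron scores were removed. These were not all the same pairs. Among the 25 and of the same sign were 8 of the 9, 14 of the 15 and 16 of the 22. Relations with scores numbered 23 as reported and 10 in sheet set 2. Fewer animals entered the fits within sheet sets, sexes and groups, and the cause of the other changes was not tested.

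Differences changed sign in places, none of them past the threshold, and not all of them were near 0. For High Drinker over Low Drinker (log2), Hdac4 was 0.0324 in females and 0.00173 with both scores as terms. Hdac7 was 0.00914 with the scores and 0.0115 with surrogate variables. Hdac9 was -0.01 without the sheet set term, -0.129 in sheet set 2 and -0.0731 in males, and Hdac11 was 0.0582 in sheet set 2 and 0.0291 in males. For female over male (log2) in sheet set 2, Hdac1 was -0.00581, Hdac2 0.0202, Hdac4 0.012, Hdac5 -0.0276, Hdac7 -0.171 and Hdac11 -0.0557. Hdac7 was 0.172 in sheet set 1, of like size in the other direction. In High Drinker animals alone, Hdac3 was 0.0186, Hdac4 0.00803, Hdac6 0.00524 and Hdac11 -0.0171. With both scores as terms, Hdac3 was 0.00399 and Hdac6 0.0139. In sheet set 1, Hdac3 was 0.000409 and Hdac6 0.0437, against -0.1145 for Hdac6 in sheet set 2 (edgeR adjusted p = 0.741). Without the 5 libraries, Hdac4 was 0.00901 and Hdac6 0.00758. Hdac9 was -0.00289 and Hdac6 0.00903 without the sheet set term, Hdac9 was -0.00476 without sheet set 3 and -0.107 in Low Drinker animals, and Hdac6 was 0.00215 without the library rich in a ribosomal RNA gene.

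No paired analysis was possible because the replicate numbers only name the animals. Hdac8, with 217 to 476 counts per library, was the shallowest of the 10 genes.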
